A study of Mus musculus with 2 samples.

Results

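Round spermatids were examined in the testes of adult mice, as the haploid cells that carry transcripts of acrosome genes and still little protamine mRNA. They were chosen by their own counts. A barcode was taken when it held 3000 or more counts, at most 5% mitochondrial counts, and under 5% of counts from Prm1, Prm2, Tnp1 and Tnp2, the genes of the protamines and transition proteins that replace histones later. It also had to show 3 or more of 6 acrosome-phase genes (panel R: Acrv1, Spaca3, Spaca7, Lyzl6, Lyzl4 and Tex36), and more of them than of 6 pachytene genes (panel P) and of 6 meiotic division genes (panel D). This rule took 688 of 16837 barcodes of the Nsun7 knockout library, a share of 4.09% (95% Clopper-Pearson interval 3.79 to 4.40%). It took 1661 of 16376 barcodes of the WT library, a share of 10.1% (9.68 to 10.6%). Together these were 2349 of 33213 barcodes.

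The study measured poly(A) RNA of dissociated adult testis in droplets, with 1 library per genotype, Nsun7 knockout and WT. The labels do not say which part of Nsun7 was deleted, nor how many animals gave each library. Since each genotype is a single library, differences between them were not tested and have no replicate check, and all 95% intervals cover counting error only. Levels are CPM, the summed counts of a gene in a group of cells scaled to a group total of 1000000, so a level depends on all other transcripts of the same cells.

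After the meiotic divisions, a spermatid first keeps a round nucleus, builds the acrosome from Golgi vesicles and begins the flagellum. The sex chromosomes, which are silenced in pachytene spermatocytes, are in part transcribed again. Many mRNAs, those of the protamines among them, are made early and stored before the nucleus condenses. NSUN7 belongs to the NOL1/NOP2/SUN proteins, most of which methylate cytosines in RNA.

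The chosen cells were deep. Knockout round spermatids held a median of 10734 counts and 3810.5 genes, and WT ones a median of 13875 counts and 4492 genes. Thinned to 3000 counts per cell, the medians were 1813 and 1851 genes. The summed counts were 11930303 in the knockout and 31228769 in the WT library, so knockout values carry the wider counting error. Scrublet called 5 knockout (0.727%) and 53 WT (3.19%) of them doublets, and these were kept. The 2 files share 2168 barcode names, but the names are running numbers, so shared cells could not be looked for.

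The label was checked against the panels and against genes of other cells. All 6 panel R genes were detected in 477 of the knockout and 1234 of the WT round spermatids, and exactly 3 in 19 and 45 cells. Just outside the rule, 10 knockout and 15 WT cells had 2 panel R genes with fewer of the other panels. Another 146 knockout (0.867% of barcodes) and 837 WT cells (5.11%) had 3 or more panel R genes but not more than of panel P and panel D, and were left out. Their median depth was 16627 and 35331 counts, above that of the round spermatids in both libraries. The summed panel R level was 3157 CPM in knockout and 2823 CPM in WT round spermatids, against 31.9 and 56.7 CPM in pachytene-gene cells, which were chosen by the same rule with panel P leading. These panel values chose the cells and are given as a description. Depth and protamine share cut through a continuum: 71 knockout and 131 WT members lay less than 1000 counts above the minimum, next to 109 and 134 cells that lay up to 1000 counts below it and met the rest of the rule. Likewise 31 and 51 members had a protamine and transition protein share of 4 to 5%, next to 34 and 55 cells at 5 to 6%.

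Genes that define other testis cells were present at low levels. The 5 Leydig genes summed to 41.7 CPM in knockout and 35.3 CPM in WT round spermatids, which was 5.38% and 6.63% of their level in the whole libraries. For Sertoli genes this share was 15.1% and 15.4%, for macrophage genes 15.4% and 23.1%, for myoid genes 17.2% and 20.03%, and for endothelial genes 16.9% and 25.3%, so the free RNA estimate from Leydig genes rests on the lowest set with counts. The 6 Sertoli genes summed to 84.7 and 112 CPM, the 6 macrophage genes to 10.8 and 16.7 CPM, and the 6 spermatogonium genes to 13.5 and 23.3 CPM. Genes of myoid, stromal and endothelial cells summed to between 1.01 and 12.1 CPM, and red blood cell genes had 0 counts in the knockout and 2 counts in the WT cells. All Leydig, Sertoli, macrophage, spermatogonium, myoid and stroma markers had counts in both libraries. Protamine and transition protein genes made up 15.97% of all knockout and 7.33% of all WT counts, shares that also depend on the cells in each library. The lowest share in any round spermatid was 0.517% in the knockout and 0.315% in WT. Transcripts of these genes free in the cell suspension may therefore differ between the libraries.

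Panel R held genes of the acrosome and its enzymes. Acrv1 (chr9:36693220-36698843, plus strand, GRCm38) encodes an acrosomal matrix protein and had 693 CPM in knockout and 647 CPM in WT round spermatids. Spaca3, a sperm lysozyme-like protein, had 423 and 408 CPM. Spaca7, which is released from the acrosome, had 475 and 405 CPM. Lyzl6 and Lyzl4, also of the lysozyme family, had 693 and 572 CPM, and 232 and 213 CPM, while Tex36 had 641 and 579 CPM. All 6 were higher in the knockout cells, by factors between 1.04 and 1.21. Since detecting these genes was the condition for entry, their ratio between the libraries is a description of the chosen cells.

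Promoter sequence was looked at for genes that peak in these cells. Among 2286 genes with 100 CPM in both libraries, 366 (16%) had a round spermatid level 2 or more times that of pachytene-gene cells and that of early condensing cells (protamine share 5 to 15%), in both libraries. Of these, 293 matched a RefSeq promoter entry, with 369 windows of 250 bases before an annotated transcription start in GRCm38.p6. All sequences are from RefSeq. The letters ACAATGG, searched on both strands and a form of the motif bound by SOX proteins in general, stood in 25 of the 369 windows (6.78%), against 3.44% of the windows of all genes at 100 CPM and 3.02% of all 32851 windows. Letters of the X-box bound by RFX proteins, GTNNCC followed at once by NNNGNAAC with N for any base, stood in 26 windows (7.05%), against 3.35% and 1.80%. The cAMP response element TGACGTCA stood in 16 windows (4.34%), against 3.06% and 1.55%, but in only 2 of 150 windows (1.33%) of genes at least 4 times above both neighbouring groups. In that stricter set ACAATGG stood in 12 windows (8.0%) and the X-box letters in 8 (5.33%). These are 3 of 14 letter strings counted, they were chosen with results of these data known, and a match of letters is not a bound site. The 5 windows below belong to genes whose levels are described here, and show where such letters lie, in capitals. All 5 hold such letters, which many windows do not. Windows of Spaca3, Spaca7, Lyzl6, Lyzl4, Pphln1, Il31 and Prss46 held none of the 3 strings, and neither did the other windows of Smco4 and Lrif1. Stambpl1 and Bri3, not printed, had ACAATGG in a window each. On the printed strand ACAATGG reads as itself or as its reverse complement CCATTGT.
Acrv1, chr9:36692970-36693219, plus strand, CCATTGT 45 to 39 bases before the start: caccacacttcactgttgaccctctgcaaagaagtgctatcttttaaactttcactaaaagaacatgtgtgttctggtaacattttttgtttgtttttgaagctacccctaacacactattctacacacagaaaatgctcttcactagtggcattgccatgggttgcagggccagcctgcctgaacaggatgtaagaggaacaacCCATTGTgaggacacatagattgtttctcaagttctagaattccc
Tex36, chr7:133602116-133602365, minus strand, CCATTGT 79 to 73 bases before the start: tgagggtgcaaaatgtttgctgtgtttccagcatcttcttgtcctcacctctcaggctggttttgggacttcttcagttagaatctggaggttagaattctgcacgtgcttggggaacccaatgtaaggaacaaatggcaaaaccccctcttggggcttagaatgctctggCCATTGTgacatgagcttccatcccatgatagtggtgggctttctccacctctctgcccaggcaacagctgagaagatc
Spag6, chr2:18698772-18699021, plus strand, CCATTGT 102 to 96 bases before the start: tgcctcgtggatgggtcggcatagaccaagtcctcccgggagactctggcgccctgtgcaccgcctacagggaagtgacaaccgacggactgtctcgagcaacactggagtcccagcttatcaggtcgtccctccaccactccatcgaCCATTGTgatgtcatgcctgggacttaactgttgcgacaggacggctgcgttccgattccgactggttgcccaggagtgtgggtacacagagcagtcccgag
Smco4, chr9:15493182-15493431, plus strand, ACAATGG 195 to 189 bases before the start: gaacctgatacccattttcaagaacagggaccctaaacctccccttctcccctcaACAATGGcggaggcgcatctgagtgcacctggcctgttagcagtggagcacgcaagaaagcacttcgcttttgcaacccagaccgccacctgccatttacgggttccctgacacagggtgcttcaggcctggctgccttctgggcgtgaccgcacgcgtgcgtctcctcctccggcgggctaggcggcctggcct
Lrif1, chr3:106684737-106684986, plus strand, X-box letters 82 to 69 bases before the start: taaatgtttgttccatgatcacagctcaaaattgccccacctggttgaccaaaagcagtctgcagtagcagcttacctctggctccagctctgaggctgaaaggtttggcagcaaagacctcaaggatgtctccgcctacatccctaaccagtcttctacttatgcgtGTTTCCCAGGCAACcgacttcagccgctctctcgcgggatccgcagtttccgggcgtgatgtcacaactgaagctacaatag

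The same letters differed between genes of 2 ranges of the chosen cells, division-gene-rich and panel-R-rich cells, which are set out in the account of the ranges. ACAATGG stood in 52 of 741 windows (7.02%) of genes that were higher in panel-R-rich cells. It stood in 5 of 360 windows (1.39%) of genes that were lower there. The X-box letters stood in 1.89% and 2.50% of these windows. Over the windows of all genes at 10 CPM the shares were 2.84% for ACAATGG and 3.34% for the X-box letters. Both X-box shares thus lay below that of all these genes, and the 2 strings did not follow the same order across the sets.

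Some genes stood far above both neighbouring groups. Of the 2286 genes, 147 (6.43%) were 4 times or more above pachytene-gene cells and early condensing cells in both libraries. Spag6, a protein of the central apparatus of the axoneme, had 800 CPM in knockout and 751 CPM in WT round spermatids. It had 7.97 and 13.9 CPM in pachytene-gene cells and 76.4 and 64.3 CPM in early condensing cells. Mouse Spag6 has a near-identical copy, Spag6l, and how reads were split between them is not known. Foxj1, a transcription factor of motile cilia, had 278 and 272 CPM, against 7.31 and 11.7 CPM in pachytene-gene cells and 22.7 and 16.6 CPM in early condensing cells. Both genes thus stood above the earlier and the later cells in each library.

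The other 13 of the 15 genes with the largest ratios had the same shape. Pphln1, which encodes periphilin, had 383 and 341 CPM, against 7.97 and 9.70 CPM in pachytene-gene cells and 28.4 and 24.9 CPM in early condensing cells. Lrif1, a chromatin-associated factor, had 316 and 332 CPM, and Smco4 had 201 and 193 CPM. Il31, named as an interleukin, had 214 and 190 CPM, and only 3.99 and 7.74 CPM in pachytene-gene cells. Prss46, of the trypsin-like serine proteases, had 251 and 224 CPM, against 22.5 and 18.3 CPM in early condensing cells. Tnrc18, Gnpda2, Stambpl1, Fancd2os, Fam228b, Bri3, Prr27 and Zdhhc11 completed the 15, at 135 to 317 CPM. The ratio of knockout to WT round spermatids for the 15 genes was between 0.95 and 1.33, and Prr27 had the highest.

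Transcripts of both sex chromosomes were abundant in round spermatids and scarce in the meiotic cells. Chromosome X gave 1.15% of the counts of knockout and 1.10% of those of WT round spermatids. It gave 0.178% and 0.135% in pachytene-gene cells, 0.310% and 0.240% in division-gene cells, and 1.85% and 1.87% in early condensing cells. Among 199 X-linked genes with 10 CPM in round spermatids, 181 were 2 or more times higher than in pachytene-gene cells in both libraries and 0 were lower. Over all 8276 genes at this level the shares were 30.1% higher and 12.2% lower. The X-linked share therefore stood well above that of all genes, in both libraries.

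**Figure D1:**
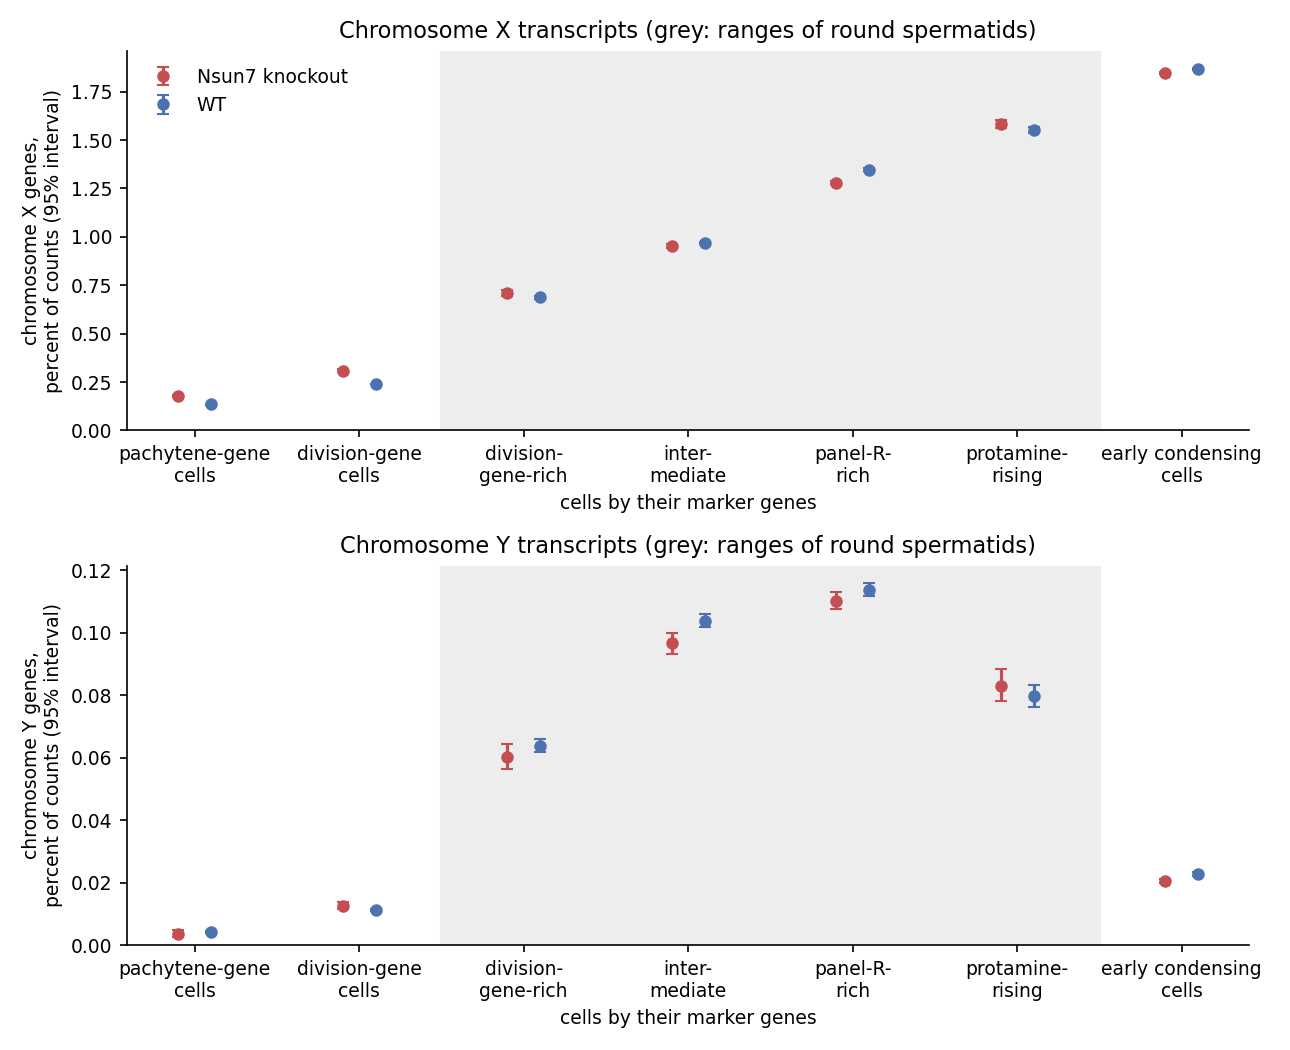
Percent of counts from chromosome X genes (upper plot) and chromosome Y genes (lower plot), with exact 95% counting intervals, for the knockout (red) and the WT library (blue), in groups of cells ordered by their marker genes, with the 4 ranges of round spermatids in grey. X-linked transcripts are higher in each later group and reach 1.85% and 1.87% in early condensing cells, while Y-linked transcripts peak in the panel-R-rich range at 0.110% and 0.114%.

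Named X-linked genes covered different parts of sperm formation. Akap4, a scaffold of the fibrous sheath of the tail, had 809 CPM in knockout and 733 CPM in WT round spermatids, and 4977 and 5001 CPM in early condensing cells, so its peak lay later. Tsga8, a haploid-phase gene, had 395 and 398 CPM, against 8.63 and 12.4 CPM in pachytene-gene cells and 121 and 131 CPM in early condensing cells. Cylc1, a cylicin of the perinuclear theca, had 171.5 and 171.9 CPM. Cypt1 had 228 and 215 CPM and Slxl1 349 and 303 CPM, but both belong to families of similar copies and their values are uncertain. Of the 21 measured genes of the X-linked haploid list, 20 were at least 2 times above pachytene-gene cells and 0 below.

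Chromosome Y transcripts had a higher share in round spermatids than in the cells before and after them. They made up 0.0976% of the counts in knockout and 0.0971% in WT round spermatids. They made up 0.00369% and 0.00422% in pachytene-gene cells, 0.0127% and 0.0113% in division-gene cells, and 0.0207% and 0.0228% in early condensing cells. In round spermatids 33 Y-linked genes reached 10 CPM in each library, against 1 in pachytene-gene cells and 4 in early condensing cells of each. Of the 33, 32 were at least 2 times above pachytene-gene cells and 28 at least 2 times above early condensing cells, in both libraries. Over all 8276 genes, 51.2% were that much above early condensing cells and 7.3% below. Eif2s3y, a subunit of a translation initiation factor, had 73.6 and 78.7 CPM, against 1.99 and 2.72 CPM in pachytene-gene cells and 8.92 and 11.6 CPM in early condensing cells. Zfy2, a zinc finger regulator, had 15.8 and 12.6 CPM, against 0 and 0.766 CPM in pachytene-gene cells. Most of the 33 genes, such as Sly at 42.8 and 44.3 CPM and Ssty2 at 23.1 and 21.1 CPM, belong to families of near-identical copies, and single values of these are uncertain while the chromosome's sum is less so.

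Round spermatids were not uniform, and 4 ranges were set among them after the data had been seen. The ratio of the summed panel R to the summed panel D level, each with 50 CPM added, divided the cells under 2% protamine share into division-gene-rich (ratio under 2), intermediate (2 to 8) and panel-R-rich cells (8 or more). Cells with a protamine share of 2% or more are called protamine-rising. Division-gene-rich cells were 93 of the knockout members (13.5%, 11.1 to 16.3%) and 359 of the WT members (21.6%, 19.7 to 23.7%). Their panel D genes summed to 1217 CPM in knockout and 1343 CPM in WT, next to 1196 and 1196 CPM for panel R. The round spermatid label is therefore least sure in this range. Intermediate cells were 195 (28.3%) and 551 (33.2%), panel-R-rich cells 280 (40.7%, 37.0 to 44.5%) and 583 (35.1%, 32.8 to 37.4%), and protamine-rising cells 120 (17.4%, 14.7 to 20.5%) and 168 (10.1%, 8.71 to 11.7%). The knockout library thus held relatively more members at the protamine-rich end. Its free protamine transcripts also lay higher, at 0.860% of the summed counts of round spermatids against 0.486% in WT, as estimated from Leydig genes. Some members held less protamine and transition protein RNA in all, down to 0.517% and 0.315%, so the estimate is too high for these. Cells with 1% or more of counts from Leydig genes had a median share of 0.735% in the knockout and 0.466% in WT. Both lie below the estimates, the knockout by more, so the estimated gap between the libraries may be too wide. Free protamine transcripts count towards the 2% limit, and their part in the difference was not tested. In 105 knockout and 286 WT cells the values lay within 0.25 log2 units of a limit. Of the WT protamine-rising cells 16.1% were called doublets, against 0.833% in the knockout.

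**Figure D2:**
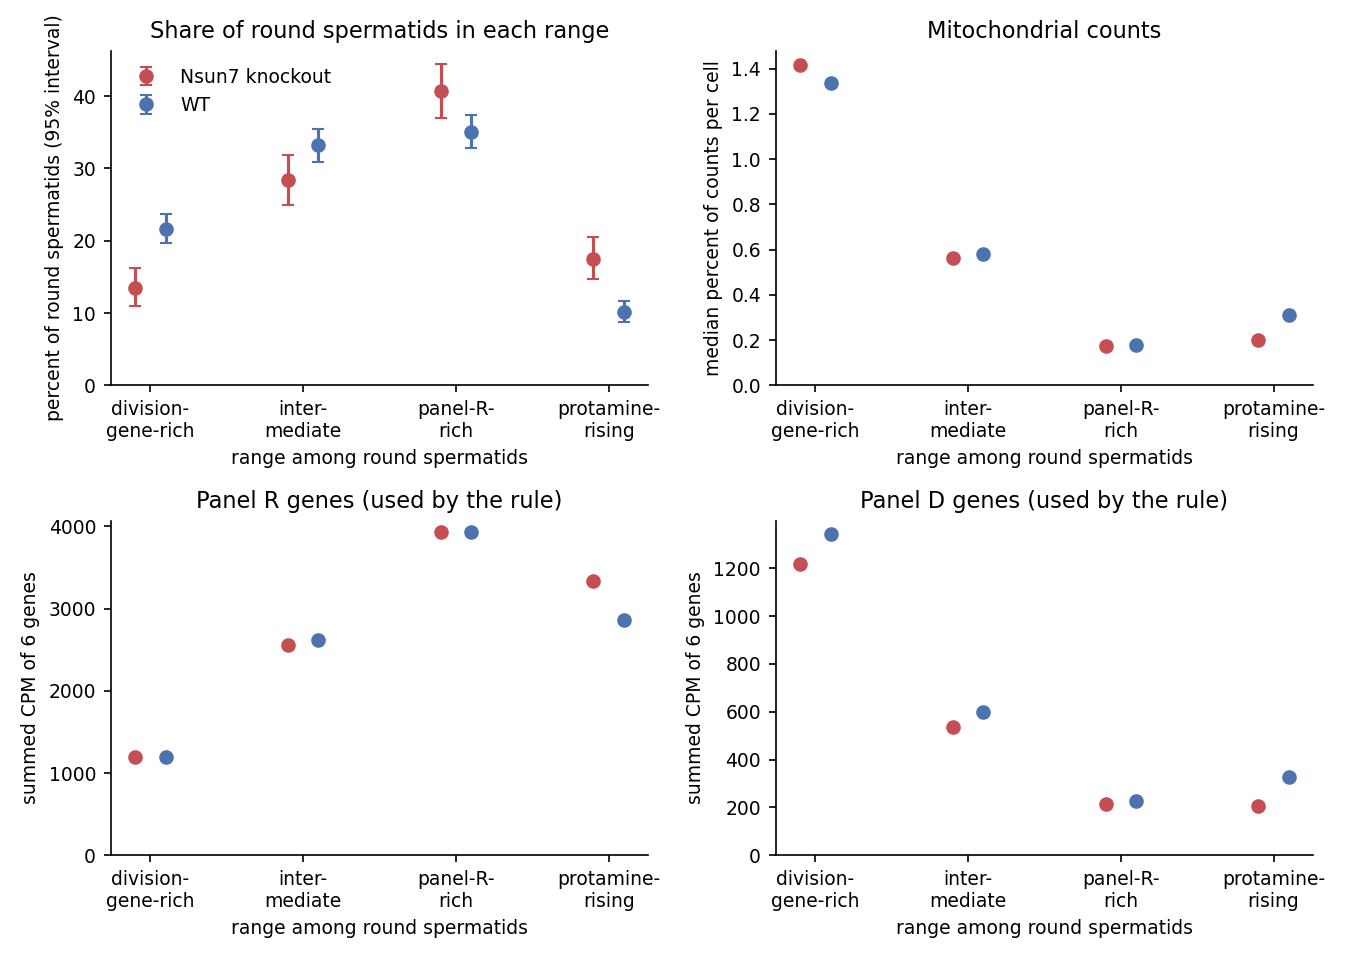
The 4 ranges of round spermatids in the knockout (red) and the WT library (blue): percent of round spermatids in each with exact 95% intervals, median percent of mitochondrial counts per cell, and summed CPM of the 6 panel R and the 6 panel D genes, which set the ranges. Mitochondrial counts, which did not set the ranges, are 1.42% and 1.33% in division-gene-rich cells and 0.173% and 0.180% in panel-R-rich cells.

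Mitochondrial transcripts followed the ranges although they had no part in setting them. Their median share was 1.42% in knockout and 1.33% in WT division-gene-rich cells, and 0.562% and 0.583% in intermediate cells. It was 0.173% and 0.180% in panel-R-rich cells, and 0.203% and 0.311% in protamine-rising cells. Division-gene cells, which lie outside the rule, had 1.46% and 1.54%, close to the division-gene-rich range. Chromosome X transcripts ran the other way, at 0.711% and 0.687%, 0.951% and 0.970%, 1.28% and 1.35%, and 1.58% and 1.55% over the 4 ranges. Chromosome Y transcripts had their highest share in panel-R-rich cells, at 0.110% and 0.114%, and lower ones in protamine-rising cells, at 0.0831% and 0.0797%. The order over the 4 ranges was the same in both libraries for X and for Y.

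Between division-gene-rich and panel-R-rich cells, a level 2 or more times higher in panel-R-rich cells in both libraries was found for 707 of 3847 genes with 50 CPM (18.4%), and one 2 or more times lower for 380 (9.88%). The higher side began with genes that are almost absent in division-gene-rich cells. Spata31d1d, of the spermatogenesis-associated 31 family, had 2.09 CPM in knockout and 2.16 CPM in WT division-gene-rich cells, 9.93 and 15.5 CPM in intermediate, 100.4 and 138 CPM in panel-R-rich, and 203 and 179 CPM in protamine-rising cells. Tex29 had 19.5 and 14.1 CPM, 83.1 and 97.1 CPM, 354 and 444 CPM, and 608 and 547 CPM over the same ranges. Both were higher in each later range in each library, though Spata31d1d has near-identical copies and its value is uncertain. Iqca1l had 13.2 and 23.3 CPM in division-gene-rich and 337 and 414 CPM in panel-R-rich cells, and Tubb6, a beta tubulin, 9.75 and 5.10 CPM, and 151 and 164 CPM. Adam29, of the membrane-bound ADAM family, had 5.57 and 3.55 CPM in division-gene-rich and 106 and 122 CPM in panel-R-rich cells. Asb15, Ccdc27, Acot10, Saxo1, Rbm43, Mical2 and Mbd3l1 completed the 12 largest ratios.

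The lower side held the genes with the highest levels in division-gene-rich cells relative to panel-R-rich ones. Pabpc6, a poly(A)-binding protein, had 768 CPM in knockout and 767 CPM in WT division-gene-rich cells, 273 and 274 CPM in intermediate, 69.5 and 87.8 CPM in panel-R-rich, and 108 and 143 CPM in protamine-rising cells. Hspa5, the endoplasmic reticulum chaperone BiP, had 724 and 786 CPM, 337 and 390 CPM, 102 and 112 CPM, and 138 and 192 CPM. Levels were lowest in panel-R-rich cells for both genes and in both libraries. Rrm1, the large subunit of ribonucleotide reductase, had 149 and 147 CPM in division-gene-rich and 10.3 and 17.7 CPM in panel-R-rich cells. Rpa1, which binds single-stranded DNA, had 283 and 292 CPM, and 45.1 and 45.1 CPM. Diablo, a mitochondrial protein released in apoptosis, had 346 and 417 CPM, and 43.6 and 59.6 CPM. Dnaic2 and Ccdc151, genes of the outer dynein arms and their docking, had 178 and 187 CPM, and 138 and 159 CPM, in division-gene-rich cells, and 14.4 and 17.9 CPM, and 13.7 and 18.8 CPM, in panel-R-rich cells.

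**Figure D3:**
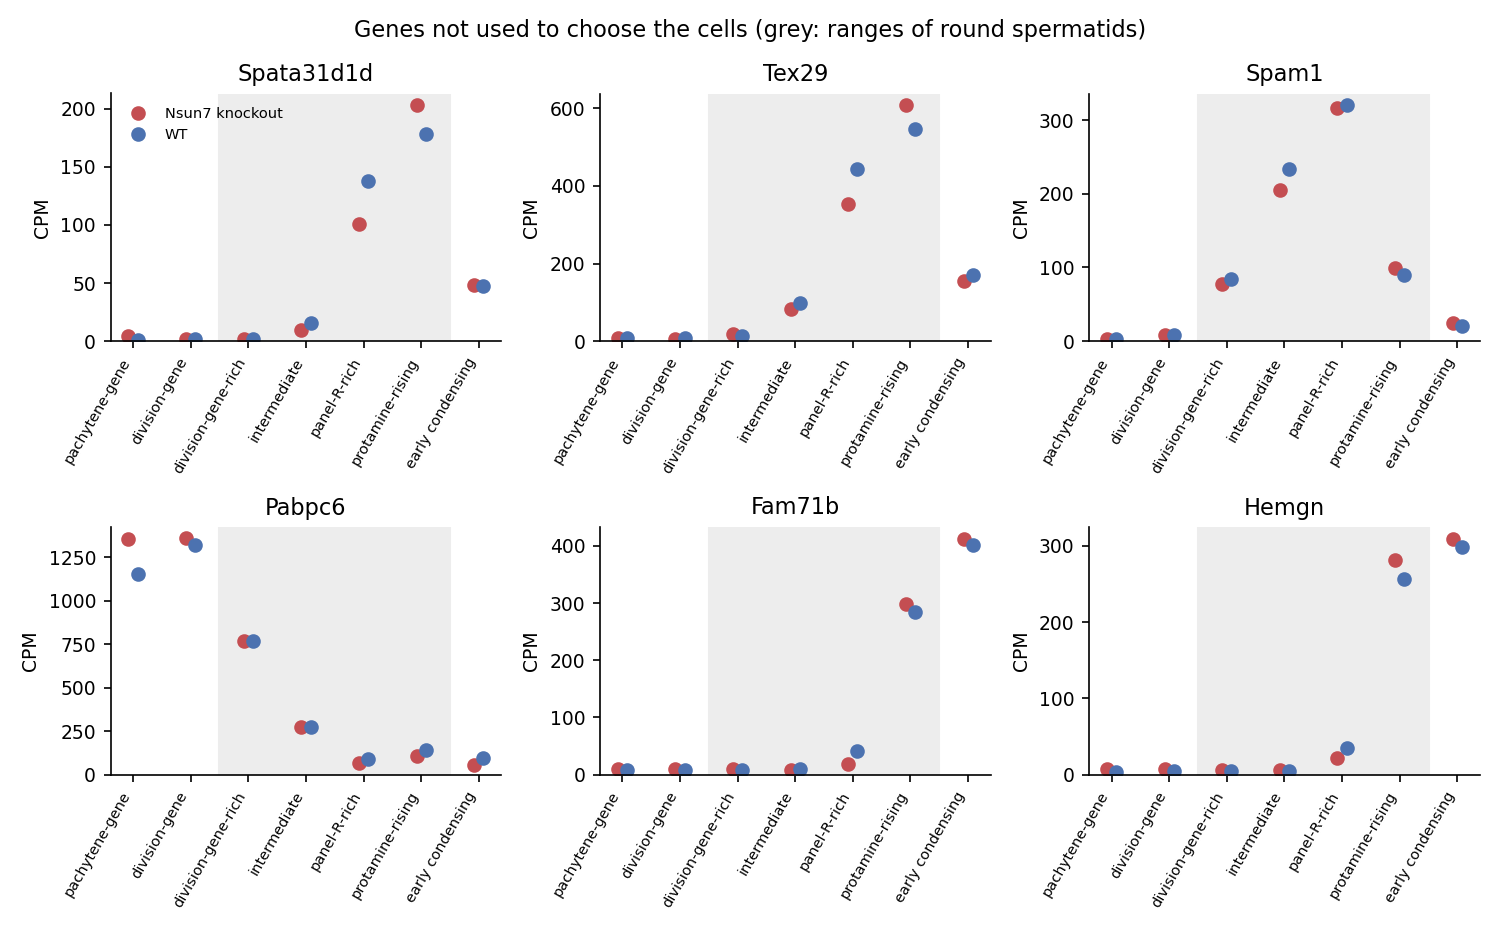
CPM of 6 genes that had no part in choosing the cells, in the knockout (red) and the WT library (blue), over pachytene-gene cells, division-gene cells, the 4 ranges of round spermatids (grey) and early condensing cells. Spam1 peaks in panel-R-rich cells at 316 and 320 CPM, Pabpc6 is lower after the division-gene-rich range, and Fam71b and Hemgn reach 298 and 284 CPM, and 282 and 257 CPM, in the protamine-rising range.

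A second change came with the protamines. In protamine-rising cells, 176 of 3675 genes with 50 CPM (4.79%) were 2 or more times higher than in panel-R-rich cells in both libraries, and 33 (0.898%) were 2 or more times lower. Counted in each library on its own, 253 genes in the knockout and 188 in WT were higher, and 95 and 43 lower. Hemgn, first known from blood-forming cells, had 22.1 and 34.7 CPM in panel-R-rich and 282 and 257 CPM in protamine-rising cells. Fam71b had 18.1 and 41.3 CPM, and 298 and 284 CPM. Prss37, a serine protease homologue needed for sperm function, had 25.02 and 41.8 CPM, and 280 and 268 CPM. Dyrk4, a protein kinase, had 9.98 and 26.0 CPM, and 141 and 155 CPM, and Tuba8, an alpha tubulin, 46.3 and 71.3 CPM, and 431 and 368 CPM. For these 5 genes the knockout value was lower in panel-R-rich cells and the protamine-rising values were closer to each other.

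Genes that were lower in protamine-rising cells had a peak within the round spermatid stage. Spam1, a hyaluronidase of the sperm surface, had 78.0 CPM in knockout and 84.4 CPM in WT division-gene-rich cells, 205 and 234 CPM in intermediate, 316 and 320 CPM in panel-R-rich, and 99.5 and 89.8 CPM in protamine-rising cells. Il31 ran over 96.1 and 81.3 CPM, 198 and 210 CPM, 281 and 260 CPM, and 73.2 and 84.0 CPM. Smc2, a condensin subunit, had 148 and 144 CPM in panel-R-rich and 35.8 and 49.5 CPM in protamine-rising cells. Dsg1a, a desmoglein, had 102 and 113 CPM, and 45.4 and 35.2 CPM. Smco4, Tex15, Bri3, Zdhhc11, Lurap1, Efcab12, Atp10a and Nrm were lower in the same way, by 2.12 to 3.49 times in the knockout, with 5 CPM added to both levels.

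A part of the acrosome genes had a higher level in panel-R-rich than in division-gene-rich cells. Of 34 measured genes of this list, 16 were at least 2 times above pachytene-gene cells in both libraries and 2 below, and 25 were above early condensing cells and 4 below. Over all genes the shares were 30.1% above and 12.2% below pachytene-gene cells, and 51.2% above and 7.3% below early condensing cells. Along the ranges 14 of the 34 were at least 2 times higher in panel-R-rich than in division-gene-rich cells and 0 lower, against 17.5% higher and 10.1% lower over all 8276 genes at 10 CPM. In protamine-rising cells 2 were at least 2 times higher again than in panel-R-rich cells and 1 lower, against 3.59% and 1.03% over all genes. Hyal5, a second hyaluronidase, had 172 CPM in knockout and 154 CPM in WT round spermatids and was at 19.5 and 20.7 CPM in division-gene-rich and 229.8 and 247 CPM in panel-R-rich cells. Eqtn, the acrosomal membrane protein equatorin, had 72.4 and 68.5 CPM, and 412 and 386 CPM. Izumo1, which binds the egg, had 78.7 and 78.2 CPM, and 258 and 269.9 CPM. Izumo2 had 116 and 87.9 CPM, and 566 and 567 CPM. Spaca1, needed to form the acrosome, had 384 and 376 CPM, and 1036 and 1130 CPM.

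Not every acrosome gene followed this course. Acr, the protease acrosin, had 422 and 381 CPM in division-gene-rich, 431 and 412 CPM in panel-R-rich and 333 and 268 CPM already in pachytene-gene cells. Acrbp, which binds proacrosin, had 735 and 767 CPM, 749.5 and 700.0 CPM, and 648 and 574 CPM in these groups. Zpbp2, a zona pellucida binding protein, was lower in panel-R-rich cells, at 576 and 547 CPM against 958 and 970.2 CPM in division-gene-rich cells. Spaca9 and Sppl2c had their highest round spermatid level in protamine-rising cells, Spaca9 with 302 and 349.9 CPM in panel-R-rich and 642 and 534 CPM in protamine-rising cells, and Sppl2c with 42.8 and 54.7 CPM, and 168 and 134 CPM. The median log2 ratio of the list between knockout and WT round spermatids was 0.03, with 0 genes 1.5 times apart. It was -0.08 with the same mix of protamine-share bins, which need not hold like cells in both libraries.

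Regulators of haploid transcription and of stored mRNA had different courses over the ranges. Of 15 measured haploid regulators, 4 were at least 2 times higher in panel-R-rich than in division-gene-rich cells and 0 lower, against 17.5% and 10.1% of all genes. Creb3l4, a membrane-bound CREB family factor, had 256 and 246 CPM in division-gene-rich and 1029 and 1003 CPM in panel-R-rich cells. Fhl5, a coactivator of CREM, had 34.1 and 26.9 CPM, and 329 and 363 CPM. Sox30, a transcription factor that male meiosis and spermatids need, had 99.6 and 87.2 CPM, and 245 and 255 CPM. Tbpl1, the TBP-like factor, ran the other way, with 1110 and 1228 CPM, and 585 and 577 CPM. Rfx2 had 259 and 250 CPM, and 161 and 159 CPM. Of 25 measured genes of the chromatoid body and of mRNA storage, 1 was higher along this step and 2 lower. Neither Tdrd6 nor Ddx25 was among these 2. Tdrd6, a scaffold of the chromatoid body, had 554 and 526 CPM, and 279 and 271 CPM, and the helicase gene Ddx25 606 and 601 CPM, and 488 and 453 CPM. The gene that was higher, Gtsf1l, had 189 and 149 CPM, and 777 and 811 CPM.

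Chromatin genes had different courses over the ranges. Of 22 measured histone variant and chromatin genes, 7 were at least 2 times higher in panel-R-rich than in division-gene-rich cells and 3 lower, against 17.5% and 10.1% of all genes. Cdyl, a chromodomain protein, had 20.9 CPM in knockout and 15.6 CPM in WT division-gene-rich cells, 205 and 305 CPM in panel-R-rich, and 568 and 549 CPM in protamine-rising cells. Chd5, a remodelling enzyme needed for histone removal, had 53.6 and 51.3 CPM, 200.3 and 268 CPM, and 255 and 304 CPM. H1fnt, a spermatid linker histone, had 198 and 119 CPM, 599 and 749 CPM, and 1511 and 1380 CPM. The related Hils1 had 225 and 189 CPM, 1152 and 1190 CPM, and 1735 and 1475 CPM. Hmgb4, a high mobility group protein, had 243 and 159 CPM, 963 and 1065 CPM, and 1774 and 1564 CPM. H2afz and the acetyltransferase gene Kat5 were lower at each step to panel-R-rich cells, H2afz with 751 and 812 CPM, and 340.2 and 315 CPM, and Kat5 with 72.4 and 80.7 CPM, and 26.0 and 24.4 CPM.

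Tail genes divided by structure. Of 37 measured genes of the fibrous sheath, outer dense fibres and midpiece, 18 were at least 2 times higher in panel-R-rich than in division-gene-rich cells and 1 lower. Of 79 axoneme genes, 6 were higher and 16 lower, against 17.5% and 10.1% over all genes. Odf3, an outer dense fibre gene, had 43.2 and 45.9 CPM in division-gene-rich and 381 and 433 CPM in panel-R-rich cells. Ropn1, which binds the fibrous sheath scaffolds, had 267 and 219 CPM, and 1048 and 1066 CPM, and Akap3, such a scaffold, 324 and 295 CPM, and 721 and 781 CPM. Rsph1, of the radial spoke head, had 1770 and 1893 CPM, and 632 and 621 CPM. Sun5, which joins head and tail, was close to absent in meiosis, with 1.33 and 2.89 CPM in pachytene-gene cells, and had 38.3 and 37.6 CPM, and 239 and 227 CPM, in the 2 ranges. Compared with early condensing cells, 63 of the 79 axoneme genes were at least 2 times higher in round spermatids and 0 lower, while the 37 sheath, fibre and midpiece genes had 11 higher and 10 lower. Over all genes the shares in this contrast were 51.2% higher and 7.3% lower.

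Channel, metabolic and kinase lists differed in their counts along this step, where the shares over all genes were 17.5% higher and 10.1% lower. Of 23 measured ion channel and transporter genes, 7 were higher and 1 lower in panel-R-rich than in division-gene-rich cells, while the list's median log2 ratio was -0.31 in the knockout and -0.58 in WT, against -0.16 and -0.22 over all genes. Catsper3 and Catsper4, pore subunits of the sperm calcium channel, had 43.2 and 55.3 CPM, and 98.2 and 126 CPM, in division-gene-rich cells, and 255 and 259.7 CPM, and 273 and 324 CPM, in panel-R-rich cells. Catsper2, another pore subunit, had 473 and 515 CPM, and 300.4 and 300.1 CPM. Lrrc52, an auxiliary subunit of the sperm potassium channel, had 4.18 and 6.03 CPM, and 73.9 and 65.7 CPM. Of 20 glycolysis genes 4 were higher and 2 lower, shares near those of all genes. The list includes the glucose transporter gene Slc2a3 with 340 and 386 CPM, and 54.9 and 90.8 CPM. Of 36 kinase, phosphatase and ubiquitin genes 12 were higher and 0 lower, with Tssk1, a testis-specific serine kinase, at 327 and 310 CPM, and 812 and 847 CPM.

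Meiotic genes persisted at different levels. Of 24 measured genes of recombination and the synaptonemal complex, 11 were at least 2 times below pachytene-gene cells in both libraries and 3 above, against 12.2% below and 30.1% above over all genes. Sycp3, a lateral element protein, had 62.6 CPM in knockout and 95.6 CPM in WT round spermatids, against 468 and 603 CPM in pachytene-gene cells. Rec8, the meiotic cohesin, was the reverse, with 126 and 109.8 CPM against 1.33 and 3.06 CPM. Syce2, a central element gene, had 236 and 209 CPM, against 104 and 84.0 CPM, and reached 543 and 496 CPM in protamine-rising cells. Of 17 stress genes of the endoplasmic reticulum and of oxidation 4 were higher and 5 lower along the step to panel-R-rich cells, and Hsp90b1, the chaperone GRP94, had 561 and 648 CPM in division-gene-rich and 134 and 148 CPM in panel-R-rich cells. The p53 and apoptosis list had 7 measured genes with 1 higher and 2 lower, and the immediate early list 6 with 0 higher and 0 lower. The remaining list of intraflagellar transport, manchette and head-tail coupling had 57 measured genes, 8 higher and 8 lower. The shares over all genes along this step were 17.5% higher and 10.1% lower.

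The targeted transcript was lower in knockout round spermatids but was not absent. Nsun7 (chr5:66259897-66298026, plus strand, GRCm38) had 520 counts, or 43.6 CPM (39.9 to 47.5), in knockout and 7211 counts, or 231 CPM (226 to 236), in WT round spermatids. The WT level was 5.30 times the knockout level (4.85 to 5.80). Over the 4 ranges it had 71.0, 42.4, 38.9 and 37.4 CPM in the knockout, and 267, 244, 208 and 189 CPM in WT. Every range was lower in the knockout and the intervals of the 2 libraries did not overlap in any of them. Whether the remaining counts come from the part of the gene that was deleted cannot be told from a count per gene.

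**Figure D4:**
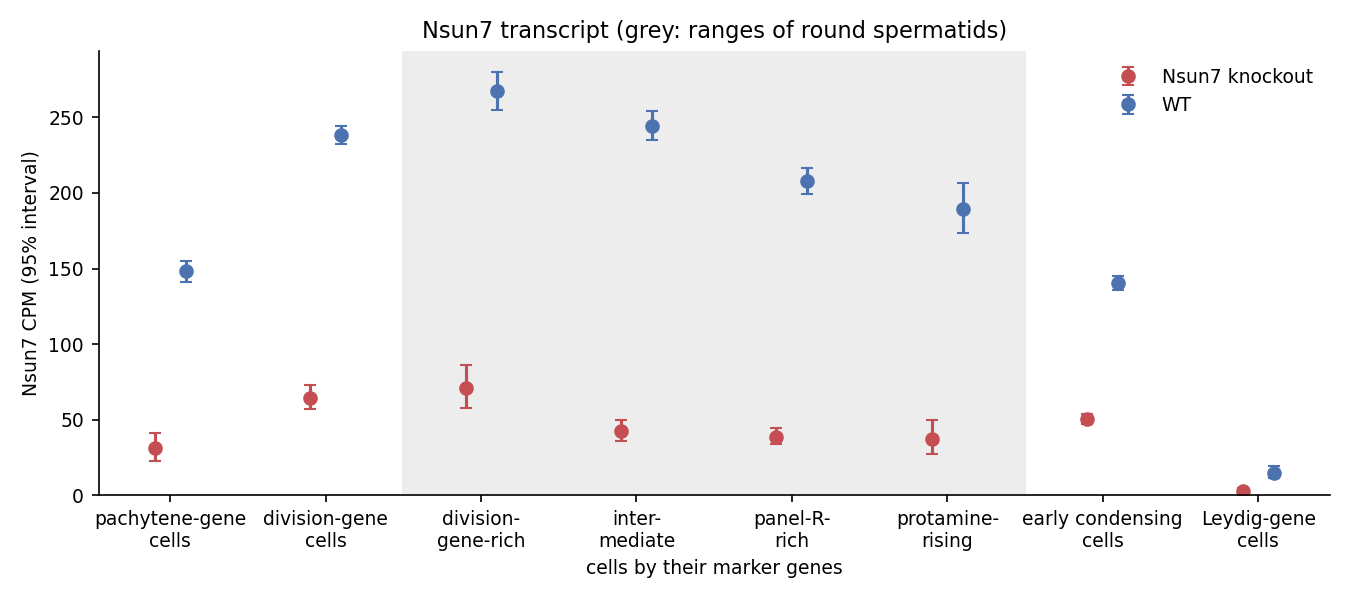
Nsun7 CPM with exact 95% counting intervals in the knockout (red) and the WT library (blue), over meiotic cells, the 4 ranges of round spermatids (grey), early condensing cells and Leydig-gene cells. In WT the highest point is the division-gene-rich range at 267 CPM, and each knockout value lies under its WT value.

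Among the WT germ cell groups compared here, Nsun7 was highest in division-gene cells and round spermatids. WT pachytene-gene cells had 148 CPM, division-gene cells 238 CPM, round spermatids 231 CPM and early condensing cells 140 CPM, next to 31.2, 64.6, 43.6 and 50.4 CPM in the knockout. After thinning to 3000 counts, 13.2% of the knockout (10.8 to 15.99%) and 49.4% of the WT round spermatids (46.9 to 51.8%) held a count of Nsun7. Without thinning the shares were 42.4% and 87.5%. In Leydig-gene cells (1% or more of counts from Leydig genes), which had the lowest level, 0.643% and 4.73% of the thinned cells held a count, and 4.50% and 18.2% of the unthinned ones, at median depths of 15612 and 12540 counts. The shares in round spermatids were above this background in both libraries. Among the other genes of RNA cytosine methylation, Nsun2 had 155 CPM in knockout and 149 CPM in WT round spermatids, Nsun4 82.0 and 73.4 CPM, and Nsun6 45.3 and 39.2 CPM, and of the 6 measured genes of this list 0 were 1.5 times apart.

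Apart from Nsun7, the 2 libraries had close levels in round spermatids. With 5 CPM added to both levels, a knockout level 2 or more times the WT level was found for 0 (0.0%) of 3817 genes at 50 CPM, and the reverse for 1 (0.0262%), which was Nsun7. A difference of 1.5 times was found for 14 (0.169%) of 8276 genes at 10 CPM in the higher direction and for 35 (0.423%) in the lower one. The median log2 ratio over these genes was -0.04. Of 429 measured genes of 18 gene lists, 5 were at least 1.5 times higher, namely Paqr5, Spata32, Cstl1, Tex37 and Fscn3, and 3 lower, namely Hmgb2, Diablo and Slc2a3. The 5 higher genes all belonged to the list of late spermatid transcripts.

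**Figure D5:**
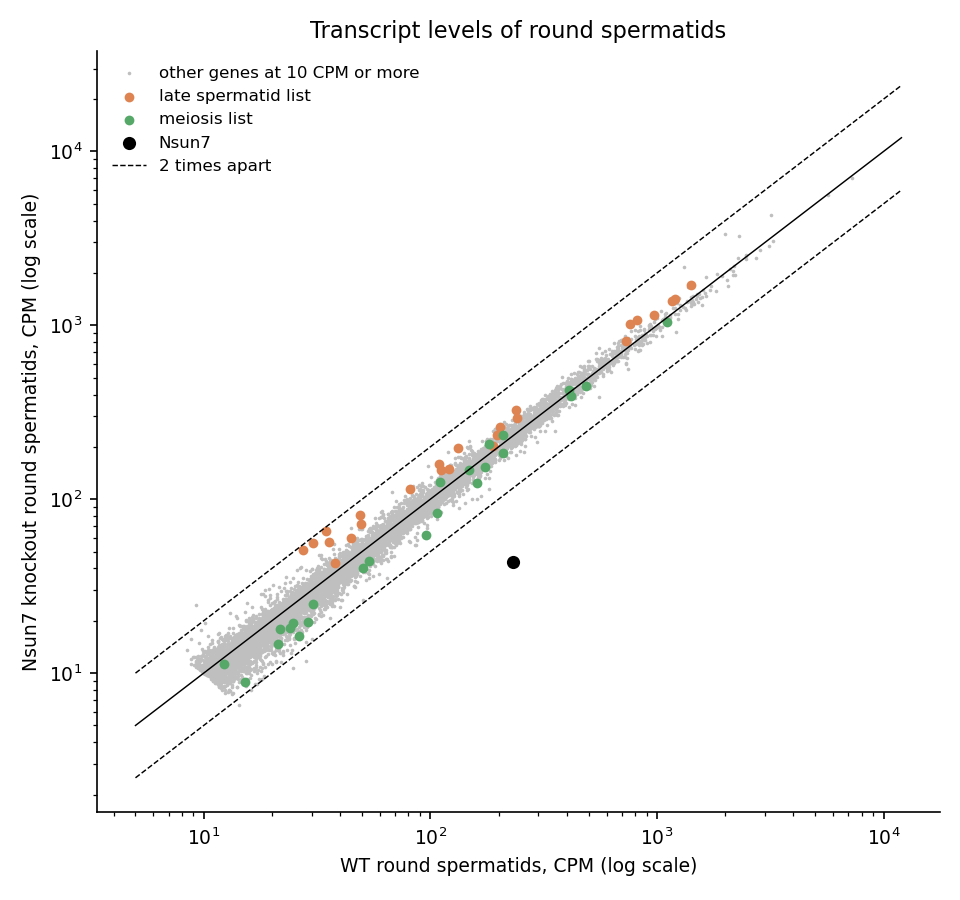
CPM of each gene at 10 CPM or more in knockout round spermatids (vertical, log scale) against WT round spermatids (horizontal, log scale), with lines of equal level and of 2 times apart. Nsun7 (black) at 43.6 and 231 CPM lies below the lower line, the 25 late spermatid genes (orange) lie above the line of equal level, and 20 of the 24 meiosis genes (green) have a lower level in the knockout.

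The late spermatid list was the one with the largest shift. All 25 measured genes were higher in knockout round spermatids, with a median log2 ratio of 0.38 against -0.04 over all genes. Paqr5, a membrane progestin receptor, had 65.8 CPM in knockout and 34.8 CPM in WT round spermatids, a ratio of 1.89 (1.72 to 2.08). It had 392 and 317 CPM in early condensing cells and 542 and 206 CPM over the whole libraries. Spata32 had 51.0 and 27.4 CPM, Cstl1, of the cystatin family, 56.2 and 30.5 CPM, Tex37 81.2 and 48.8 CPM, and Fscn3, a fascin that bundles actin, 56.9 and 35.6 CPM. By range the list's median was 0.43 in division-gene-rich, 0.61 in intermediate, 0.13 in panel-R-rich and 0.09 in protamine-rising cells. With the same mix of protamine-share bins in both libraries it was -0.01, and after subtracting free RNA 0.33. Estimated free protamine RNA enters that share and differs between the libraries, so a bin need not hold like cells in both. Protamine and transition protein genes moved with this list, with summed levels of 13119 CPM in knockout and 8784 CPM in WT round spermatids. After subtracting free RNA their log2 ratios were -0.17 for Prm1, -0.11 for Tnp1, 0.33 for Prm2 and 0.46 for Tnp2. Without it they were 0.74, 0.51, 0.44 and 0.73, so 2 of the 4 changed sign. For Prm1 in the knockout, 5.38% of its whole-library level of 52946 CPM was subtracted. That is more than its whole level in division-gene-rich, intermediate and panel-R-rich cells, at 2498, 2593 and 2577 CPM. The subtraction was too large there, and the sign changes are uncertain. The part of later cells and of free RNA in the shift was not tested.

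The meiotic list lay lower in the knockout cells, with a median log2 ratio of -0.24 and 20 of its 24 genes below 0. Within panel-R-rich cells the median was -0.11, with the same mix of the 4 ranges -0.13 and with the same mix of protamine-share bins -0.04. Panel D and panel P moved the same way, at 425 and 261 CPM in knockout round spermatids, against 593 and 313 CPM in WT ones. Their part in this shift was not tested either. The medians of the other 16 lists lay between -0.17 and 0.11, and between -0.19 and 0.19 over the alternative runs. With the same mix of protamine-share bins some changed sign, but the bins are not equivalent between the libraries. Free protamine transcripts count towards the share, at an estimated 0.860% in the knockout and 0.486% in WT. Their part in these changes was not tested. The X-linked list went from 0.09 to -0.18, the axoneme list from -0.05 to 0.09, and the sheath, fibre and midpiece list from 0.11 to -0.06. Others kept their sign, such as the haploid regulators at 0.03 and 0.02, and the chromatin list at -0.04 and -0.14.

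Single genes with the same sign in every protamine-share bin used gave small ratios. The bins were under 0.5%, 0.5 to 1%, 1 to 2% and 2 to 5%. The lowest held 0 knockout and 254 WT members and was not used for the sign. Since estimated free protamine RNA enters the share and differs between the libraries, the same bin need not hold like cells in both. On the higher side, after Paqr5, Odf1, an outer dense fibre protein, had 1024 and 761 CPM, a ratio of 1.35 (1.32 to 1.38), with 6866 and 5882 CPM in early condensing cells and 3745 and 2068 CPM over the whole libraries. With the same mix of protamine-share bins the log2 ratio was 0.15 for Odf1, 0.06 for Ms4a5, 0.09 for Sqor and 0.14 for Vasp, against 0.43, 0.34, 0.32 and 0.35 without it. Crip2, a LIM domain protein, had 61.1 and 44.3 CPM, Prr27 317 and 238 CPM, Tex48 253 and 194 CPM and Vasp, which promotes actin filament growth, 119.9 and 92.8 CPM. Ms4a5 had 583 and 458 CPM, Sqor, which oxidises sulfide in mitochondria, 620.3 and 496 CPM, and Siah2, a ubiquitin ligase, 287 and 230 CPM. D7Ertd443e, Lrrc28, Cib4 and Tmem9b had ratios of 1.25 to 1.31. The names Jak3 and Lyzl4os are uncertain, since Jak3 overlaps the Leydig gene Insl3 and had 60877 and 56744 CPM in Leydig-gene cells, and Lyzl4os lies antisense to the panel gene Lyzl4. Prr27, Siah2, Cib4, Sqor and Tmem9b were higher in round spermatids than in early condensing cells in both libraries.

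On the lower side, 13 of the 14 genes described had a higher level in pachytene-gene cells than in round spermatids in both libraries. Diablo had 105 CPM in knockout and 167 CPM in WT round spermatids, a ratio of 0.63 (0.59 to 0.67), and 719 and 769 CPM in division-gene cells. With the same mix of protamine-share bins the log2 ratio was -0.12 for Diablo, -0.13 for Zmynd10, -0.09 for Actg1, -0.04 for Qk and -0.03 for Spdya, against -0.64, -0.56, -0.52, -0.40 and -0.35 without it. Calm2, a calmodulin gene, had 101 and 160.1 CPM, Slc2a3 114 and 181 CPM, Zmynd10, which helps to assemble dynein arms, 89.2 and 134 CPM, and Actg1, the cytoplasmic gamma actin, 386 and 554 CPM. Ankrd54, Sycp3, Eif1b, Hnrnph1, Ndufb9, Qk, Eif1a and Spdya had ratios of 0.65 to 0.78. Pnmal2 differed from these in where it is expressed, with 44.9 and 62.1 CPM in round spermatids, 1.33 and 1.45 CPM in pachytene-gene cells and 17.0 and 19.5 CPM in early condensing cells.

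Genes that come up with the protamines differed between the libraries by range. Of the 176 genes higher in protamine-rising cells, 49 in division-gene-rich and 47 in intermediate cells had a knockout level 1.5 or more times the WT level, against 1.85% and 0.967% of all 8276 genes in these ranges. In panel-R-rich cells 31 of the 176 (17.6%) were at least 1.5 times lower in the knockout and 4 higher, against 1.41% lower and 0.145% higher over all genes. In protamine-rising cells 2 were lower and 0 higher, where 5.49% of all genes were lower and 1.01% higher. The levels in these 2 ranges had also chosen the 176 genes, so these counts are a description and no independent support. Fam71b, with 18.1 and 41.3 CPM in panel-R-rich cells, and Cst13, a cystatin with 28.2 and 58.7 CPM, are among the 31. In the first 2 ranges many of these genes were near the lowest levels measured, such as Hemgn with 5.57 and 4.48 CPM in division-gene-rich cells. Free protamine transcripts, at an estimated 0.860% and 0.486% of counts, were higher in the knockout as these genes were there. The part of free RNA in those counts was not tested. Free protamine transcripts also enter the 2% limit that ends the panel-R-rich range. With the limit set at the same share above this estimated free level (2% in the knockout, 1.63% in WT), 280 and 559 cells remained. In them 21 of the 176 genes were lower and 5 higher, against 1.05% lower and 0.169% higher over all genes.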

How the data were processed

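The deposited files hold raw whole-number counts per gene and barcode, made by the authors with PISA 0.12 per the file headers, from droplet libraries (DNBelab C series) of enzymatically dissociated testis per the labels' protocols. The build is GRCm38 per the submitters' processing notes; no source used here names the aligner, annotation, barcode filter or use of strand. Counts were summed over round spermatids of each library (11930303 knockout, 31228769 WT) and scaled to CPM. Log2 ratios, and ratios used to rank or count genes, carry 5 CPM added to both levels. Other ratios printed for a gene do not, nor do the log2 ratios of Nsun7 over the alternative runs. Counts of genes used minimums of 50 CPM (lists 10 CPM, genes peaking in round spermatids 100 CPM). By rule the named genes were Nsun7, the panels, the 15 that stood highest above both neighbouring groups, and the extreme and most abundant members of each list. The 15 with the largest and the 15 with the smallest knockout to WT ratio were also named. These were taken among genes of the same sign in every protamine-share bin with 50 or more members in each library. Predicted, mitochondrial and ribosomal protein genes were left out. The genes named for the ranges (from the 12 largest ratios on each side) and the other list genes were chosen after their values were seen. Of the 15 smallest ratios, 1 gene is not reported here. Intervals are exact 95% Poisson, Clopper-Pearson or conditional binomial intervals. The free RNA share was estimated from Leydig genes. The calculation of ratios and intervals was checked on Poisson counts simulated from a pooled profile. These held no variation between cells, free RNA or library effect, so the check does not cover those. Members, lists and letter strings were chosen with earlier results of these data known. Tools were Python 3.11.15, numpy 2.4.6, scipy 1.17.1, pandas 2.3.3, scanpy 1.11.5 and matplotlib 3.10.9.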

Additional observations from a re-analysis of the deposited data

How the results depend on the processing

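Each value compares 1 library with 1 library, so neither animals nor preparations can be told apart from genotype, and depth limits the knockout more. Nsun7 kept its direction in every alternative run, with log2 ratios of -2.43 to -2.31 against -2.41 in the report. These carry no added CPM, and with 5 CPM added the report's value is -2.28. The count of genes at least 2 times lower in the knockout was 3 (Nsun7, Pex5l and Tmem144) with the same mix of protamine-share bins and 0 at a minimum of 200 CPM, where Nsun7 is not counted. The count at least 2 times higher was 1 at a minimum of 10 CPM (G630055G22Rik, with 24.8 and 9.25 CPM). The 8 list genes 1.5 times apart became 4 (Cstl1, Fscn3, Paqr5 and Spata32) with free RNA subtracted, and 4 (Cstl1, Paqr5, Spata32 and, lower, Hmgb2) with the same mix of the 4 ranges, which was added after seeing the data. With 1 CPM in place of 5 CPM added, 5 were higher and 8 lower. With the same mix of protamine-share bins they were 11, all lower. The bins are not equivalent, since estimated free protamine RNA differs. At 5000 counts or more the shares of barcodes were 3.225% in the knockout and 8.61% in WT, and 9.343% in WT after thinning to 3000 counts. The cause of these changes was not tested. All other alternatives run left these counts within 1.5 times. No paired analysis was possible because each genotype has 1 library.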
